A study of Homo sapiens with 16 samples.

Results

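The genes described here encode the respiratory chain subunits that are made from nuclear DNA: the NDUF genes of complex I, the SDH genes of complex II, the UQCR genes of complex III, the COX4 to COX8 genes of complex IV and the ATP5 genes of complex V. They were chosen by gene symbol and by a mean of at least 50 read counts over the 16 libraries, with no use of any difference between conditions. Of 25370 genes in the count table, 87 had a matching symbol and 78 were expressed at that level: 37 for complex I, 4 for complex II, 8 for complex III, 12 for complex IV and 17 for complex V. All 78 passed the filter on low counts. The symbols are the older ones, so that ATP5A1, ATP5B and ATP5F1 are the genes now called ATP5F1A, ATP5F1B and ATP5PB. By symbol the 78 also take in COX7A2L, which is known as a supercomplex factor, and ATP5S and ATP5SL, which are not subunits of complex V. NDUFA4, named as a complex I gene, is now regarded as a complex IV subunit and is counted here by its symbol. Subunits whose symbols do not match, such as NDUFAB1 of complex I and CYC1 of complex III, are not among the 78.

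RNA was sequenced from HMC3, an established human microglial cell line, under 8 conditions with 2 libraries each. The cells received vehicle, 0.1 nM estradiol (E2), 400 nM ketamine, 400 nM (2R,6R)-HNK or 400 nM (2S,6S)-HNK, or 0.1 nM E2 together with 1 of the 3 compounds at 400 nM. Both HNKs are hydroxynorketamines, metabolites of ketamine that lack its N-methyl group and carry a hydroxyl on the ring, and they are mirror images of each other. By the study's methods, cells given ketamine or an HNK were first kept in hormone-stripped serum and then without serum, and treatment lasted 24 h. The methods do not state this for vehicle or for E2 alone. Whether the paired libraries were grown as independent cultures is not stated in the sources used here, so p-values measure the spread between these libraries, which may be technical.

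The libraries held 55300614 to 81646165 counts assigned to genes. The common coefficient of variation between replicates was 2.81% at this depth, and 59.3% to 71.7% of the 16004 genes tested differed from vehicle under each treatment. The microglial markers AIF1, CX3CR1, P2RY12, TMEM119, ITGAM and PTPRC had 0 to 7 counts per library, CSF1R had 24 to 89, and CD68 had 1007 to 1884. The mesenchymal markers summed to 4262 to 6468 CPM (counts scaled to the size of the library), with COL1A1 at 221049 to 390090 counts and COL3A1 at 0 to 6, while the microglial list summed to 18.3 to 23.9 CPM. The label of microglia was therefore not borne out by these markers, and the cells are called HMC3 here.

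The respiratory chain passes electrons from NADH through complex I, or from succinate through complex II, to ubiquinone, then through complex III and cytochrome c to complex IV, where oxygen is reduced. Complexes I, III and IV pump protons across the inner mitochondrial membrane as they do so, and complex V lets the protons return to make ATP. Complexes I, III, IV and V are mosaics, since a few core subunits come from mitochondrial DNA and the others from nuclear genes whose proteins are imported, whereas complex II is wholly nuclear encoded. The genes of mitochondrial DNA were not in the table and were not analysed here.

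The sequences of a few members are given first, since base composition and shared sequence bear on the values that follow. The 1st set is the start of the coding sequence of NDUFS7 and NDUFA5, read from the GENCODE annotation of GRCh37 (hg19) with exons joined and printed in lower case throughout. They are the complex I genes with the largest rise and the largest fall without the correction for GC content and length described below. With it NDUFS7 reached 0.187 and NDUFA5 -0.352 on the log2 scale, against 0.675 for NDUFA4 and -0.689 for NDUFS6. The NDUFS7 bases lie at chr19:1383926-1388590 on the plus strand and are 69.2% G or C, and the NDUFA5 bases lie at chr7:123190587-123197849 on the minus strand and are 45.8% G or C.
NDUFS7: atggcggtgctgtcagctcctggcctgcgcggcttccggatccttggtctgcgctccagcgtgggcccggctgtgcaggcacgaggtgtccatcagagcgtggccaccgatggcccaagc
NDUFA5: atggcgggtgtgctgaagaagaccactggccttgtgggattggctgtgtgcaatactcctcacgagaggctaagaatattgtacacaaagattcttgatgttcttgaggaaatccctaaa

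The 2nd set is the last 228 coding bases of the 3 genes for the c subunit, the rotor ring of complex V, because the genes are close copies and their reads had to be told apart. They lie in GRCh37 at chr17:46972584-46973131 on the plus strand (ATP5G1), chr12:54059098-54063044 on the minus strand (ATP5G2) and chr2:176043016-176043897 on the minus strand (ATP5G3), and capitals mark the positions at which the 3 genes are not all identical.
ATP5G1: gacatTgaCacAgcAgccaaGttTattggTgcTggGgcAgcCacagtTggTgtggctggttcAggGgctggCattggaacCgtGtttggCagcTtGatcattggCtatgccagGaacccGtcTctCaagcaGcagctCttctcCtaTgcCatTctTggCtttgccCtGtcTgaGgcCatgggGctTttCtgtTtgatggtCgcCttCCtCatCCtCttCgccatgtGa
ATP5G2: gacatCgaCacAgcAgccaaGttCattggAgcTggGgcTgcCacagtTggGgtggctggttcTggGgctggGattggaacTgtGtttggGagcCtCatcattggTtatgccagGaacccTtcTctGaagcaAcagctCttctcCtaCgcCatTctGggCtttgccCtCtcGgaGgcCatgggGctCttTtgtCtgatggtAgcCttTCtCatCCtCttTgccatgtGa
ATP5G3: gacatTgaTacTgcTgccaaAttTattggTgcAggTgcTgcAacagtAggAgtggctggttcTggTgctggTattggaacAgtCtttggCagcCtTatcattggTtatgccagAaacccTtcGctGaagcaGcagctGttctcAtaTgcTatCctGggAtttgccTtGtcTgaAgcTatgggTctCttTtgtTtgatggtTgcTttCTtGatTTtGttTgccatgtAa
The 3 genes shared 175 of the 228 bases (76.8%). ATP5G1 and ATP5G2 shared 203 (89.0%), and ATP5G3 shared 185 (81.1%) with each of them. The authors counted uniquely mapped read pairs, so pairs that fit more than 1 copy were left out.

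The 3rd set is the 250 bases before the start site of NDUFS7 and NDUFS8, members that rose without that correction, and of ATP5F1, a member that fell, from RefSeq promoters of GRCh38.p14. They lie at chr19:1383657-1383906, chr11:68030431-68030680 and chr1:111449214-111449463, all on the plus strand, and capitals mark the letters TGCGCA, an outer part of the consensus motif of NRF1, a transcription factor known for binding respiratory chain promoters.
NDUFS7: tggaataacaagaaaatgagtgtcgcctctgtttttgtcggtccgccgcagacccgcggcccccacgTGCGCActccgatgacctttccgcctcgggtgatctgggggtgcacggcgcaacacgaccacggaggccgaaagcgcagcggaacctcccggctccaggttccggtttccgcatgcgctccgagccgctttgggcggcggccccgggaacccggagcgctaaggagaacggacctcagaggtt
NDUFS8: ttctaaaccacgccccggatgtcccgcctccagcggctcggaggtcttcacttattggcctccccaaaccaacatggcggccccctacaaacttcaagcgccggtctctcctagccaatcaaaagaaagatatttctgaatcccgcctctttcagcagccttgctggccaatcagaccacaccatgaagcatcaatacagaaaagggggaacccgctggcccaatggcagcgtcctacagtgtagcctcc
ATP5F1: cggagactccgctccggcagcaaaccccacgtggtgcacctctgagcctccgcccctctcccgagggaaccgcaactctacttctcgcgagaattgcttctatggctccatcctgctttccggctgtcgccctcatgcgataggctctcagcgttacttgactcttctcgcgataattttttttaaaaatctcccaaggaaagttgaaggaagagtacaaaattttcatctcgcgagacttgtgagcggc
Members called higher and members called lower both occur with and without the letters, since SDHD, called lower, holds them. Promoters of 300 bases (250 before and 50 after the start) were matched for 64 of the 78 members, and motifs were searched on both strands. TGCGCA stood in 19 of 64 (29.7%), against 12.7% of 11837 other tested genes and 8.42% of all 27305 promoters. The ETS family letters CCGGAAG stood in 19 of 64 (29.7%), against 17.7% and 10.7%, and the YY1 letters AAGATGGC in 11 of 64 (17.2%), against 4.84% and 3.03%. Overlaps between the motifs were not removed. A match is a description of letters and not evidence of binding.

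The first question was how strongly each member was expressed in HMC3 cells. Levels between genes are given as CPM per kilobase of exon, averaged over the 16 libraries. ATP5B, the catalytic beta subunit of the complex V head, stood highest at 570.5 CPM per kilobase (461.8 to 657.9 over the libraries), next to COX8A, a small subunit of complex IV, at 524 (434.8 to 686). The library ranges of these neighbours overlapped. COX6A1 followed at 438 (353.9 to 540.3), and COX7C at 322 (285.6 to 351.9) lay wholly below it on the same scale. The median over members was 76.5 CPM per kilobase for complex I, 79.2 for complex II, 161 for complex III, 160.2 for complex IV and 130.1 for complex V. At the other end stood NDUFA5 at 3.36 and COX6B2 at 0.928 CPM per kilobase. NDUFA5 has a long annotated tail, which lowers its value on this scale.

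Several subunits exist as tissue isoforms, and HMC3 cells held 1 form of most pairs. COX4I2, the lung form of COX4, and the muscle or testis forms COX6A2, COX8C and COX7B2 had mean counts of 0.625, 0.125, 0.25 and 0 per library, and COX7A1, the heart and muscle form, had 11.5. Their partners COX4I1, COX6A1, COX8A and COX7A2 were among the expressed members. COX6B2, the testis form of COX6B, was the exception at a mean of 98.3 counts, the lowest of the members. The next lowest was ATP5E at 852 counts, and just under the limit of 50 lay UQCRBP1, a pseudogene, at 48.6. The other matching symbols below the limit were UQCRHL, ATP5EP2 and ATP5L2.

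The second question was what each treatment did against vehicle. Differences were tested with edgeR's quasi-likelihood test over all 16 libraries, with Benjamini-Hochberg adjustment over the 16004 genes of each comparison. A gene counts as called when its adjusted p is below 0.05, and edgeR adjusted p below always means this value. Since fold changes moved with base composition, the value from the same test with an offset that removes the trend with GC content and length in each library is given beside most values as the value with the GC offset. The largest rises, falls and differences below are ranked by the values without this offset. All 7 comparisons share the 2 vehicle libraries, so a high or low vehicle library moves all of them.

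After E2, the members split by gene within the complexes: 28 of 78 were called higher and 35 lower, where 29.9% of all genes tested were higher and 32.7% lower. Complex I had 12 higher and 17 lower of 37, complex III 2 and 5 of 8, complex IV 6 and 3 of 12 and complex V 7 and 9 of 17. The median log2 fold change was -0.024, against -0.003 over all genes. Under upper-quartile scaling the counts were 34 and 28, so which direction held more members after E2 depended on the scaling. The largest rise at a mean of at least 5 CPM was in ATP5D, the delta subunit of the complex V stalk, from 123 and 121 CPM in the 2 vehicle libraries to 168 and 184 (log2 fold change 0.53 ± 0.04 (SE), edgeR adjusted p = 1.57e-16, 0.009 and not called with the GC offset). NDUFS7, an iron-sulfur subunit of the quinone end of complex I, followed at 0.47 (SE 0.039, edgeR adjusted p = 4.92e-15, -0.025 with the GC offset). The largest fall was in NDUFA5, an accessory subunit of the same complex, from 27.4 and 28.01 to 15.7 and 14.8 CPM (log2 fold change -0.86 ± 0.0721 (SE), edgeR adjusted p = 5.39e-15, -0.27 with the GC offset), and the next in ATP5O, a peripheral stalk subunit, from 158 and 163 to 105 and 108 CPM (log2 fold change -0.60 ± 0.0319 (SE), edgeR adjusted p = 6.95e-22, -0.37 with the GC offset). The groups did not overlap for any of these 4 genes.

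Ketamine lowered more members than it raised: 17 were higher and 40 lower, against 26.8% and 32.5% of all genes, with a median log2 fold change of -0.094 (all genes -0.02). Complex V had 2 higher and 10 lower of 17, and its summed level was 0.903 of that in vehicle. Complex IV had 5 and 4 of 12 and a ratio of 1.01. After scaling to the upper quartile in place of trimmed means the ketamine counts were 26 and 29, so the excess of falls was smaller under that scaling. SDHB, the iron-sulfur subunit that hands electrons on in complex II, fell from 82.2 and 80.5 to 70.1 and 69.5 CPM (log2 fold change -0.22 ± 0.0359 (SE), edgeR adjusted p = 5.22e-07, -0.033 and not called with the GC offset), with no overlap between the groups. The largest falls above 5 CPM were in the complex I genes NDUFA5, at -0.76 (SE 0.0694, edgeR adjusted p = 1.01e-13, -0.28 with the GC offset), and NDUFB3, at -0.71 (SE 0.0528, edgeR adjusted p = 1.13e-16, -0.26 with the GC offset). The largest rises were in NDUFB7 and NDUFS7 of the same complex, at 0.29 (edgeR adjusted p = 2.19e-08) and 0.25 (edgeR adjusted p = 1.41e-07), both below 0 with the GC offset (-0.046 and -0.15).

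(2R,6R)-HNK raised more members than it lowered, with 41 higher and 25 lower where 31.7% and 34.9% of all genes moved in these directions, and a median log2 fold change of 0.118 (all genes -0.023). Summed over all members the level went from 8357 ± 48.2 CPM in vehicle to 9232 ± 94.1 CPM (SD, n = 2 each), a ratio of 1.11. (2S,6S)-HNK gave 34 higher and 33 lower, against 32.1% and 35.8%, a median of 0.024 (all genes -0.031) and a summed level of 8537 ± 24.4 CPM (SD, n = 2), a ratio of 1.02. With (2R,6R)-HNK complex IV had 9 higher and 2 lower and complex I 17 and 13, and with (2S,6S)-HNK these were 8 and 2 and 14 and 18. NDUFS7 and NDUFS8 had the largest rises above 5 CPM under both, 0.73 and 0.69 with (2R,6R)-HNK and 0.59 and 0.54 with (2S,6S)-HNK. The largest falls were in NDUFA5 (-0.73) and NDUFS4 (-0.68) with (2R,6R)-HNK, and in NDUFB3 (-0.90) and ATP5F1 (-0.89) with (2S,6S)-HNK. With the GC offset the 4 rises were 0.11, 0.17, 0.017 and 0.061, and the 4 falls -0.024, -0.27, -0.34 and -0.37, in the same order.

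E2 with ketamine gave the highest summed level of the 8 conditions, 9640 ± 18.3 CPM (SD, n = 2), a ratio of 1.15 to vehicle. In that comparison 38 members were higher and 26 lower, against 34.3% and 37.4% of all genes, and the median log2 fold change was 0.086 (all genes -0.035). By complex the summed ratio was 1.23 for complex I, 0.931 for II, 1.15 for III, 1.28 for IV and 1.06 for V. E2 with (2R,6R)-HNK gave 28 higher and 37 lower, against 33.4% and 36.3%, and a summed ratio of 0.989. E2 with (2S,6S)-HNK gave 15 higher and 40 lower, against 24% and 35.7%, with a median of -0.104 (all genes -0.064) and the lowest summed ratio, 0.927, in which complex V stood at 0.859. The summed level of the mesenchymal markers differed between these conditions too, with 4751 and 4758 CPM in vehicle, 6186 and 6468 with E2 plus ketamine, 6097 and 6124 with (2R,6R)-HNK and 4543 and 4262 with E2 plus (2S,6S)-HNK. After E2 alone it was 6223 and 6267 and after ketamine alone 5175 and 5256, where the summed ratios of the members were 1.002 and 0.946. Most of the marker sum was COL1A1, which alone had 3589 to 5344 CPM over the libraries. The part of these markers in the result was not tested. NDUFA7, an accessory subunit of complex I, had the largest rise of the members above 5 CPM with E2 plus (2S,6S)-HNK, from 25.1 and 23.5 to 29.2 and 29.3 CPM (log2 fold change 0.27 ± 0.0577 (SE), edgeR adjusted p = 7.13e-05, 0.17 with the GC offset). Upper-quartile scaling moved the counts of that treatment to 30 and 28, and fitting the compared groups alone to 23 and 29. CPM are shares of a library, so fewer transcripts of a gene in each cell and more RNA of other genes cannot be told apart here.

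**Figure D1:**
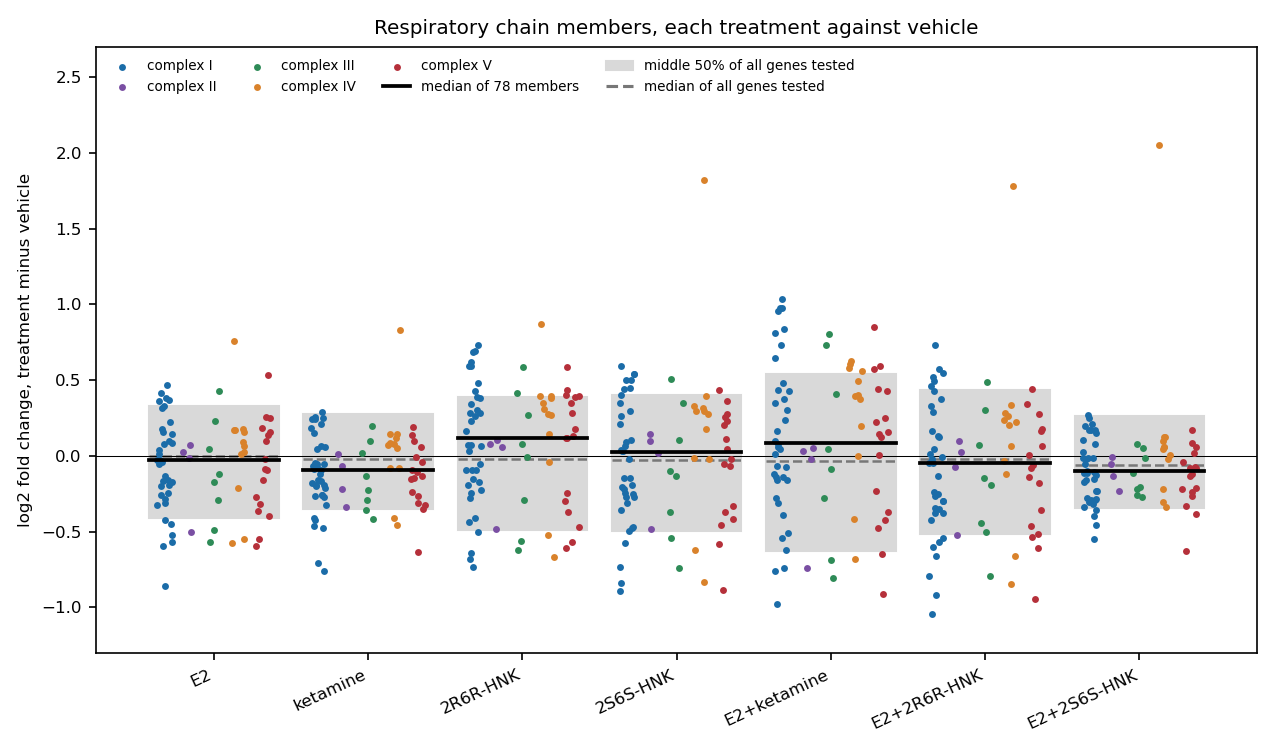
Log2 fold change against vehicle of each of the 78 members (vertical axis) under the 7 treatments (horizontal axis), coloured by complex; black lines are medians of the members, and grey boxes with dashed lines are the quartiles and median of all tested genes. All treatments share the 2 vehicle libraries, and members of 1 complex lie on both sides of 0, as in complex I from -0.86 for NDUFA5 to 0.47 for NDUFS7 under E2.

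Complex I takes electrons from NADH at a peripheral arm built of the NDUFV and NDUFS core subunits and pumps protons with a membrane arm. Within the core the genes went different ways. NDUFS7 was called higher under each treatment without the GC offset, but with it was below 0 in 3 of the 7 and called lower with ketamine (-0.15) and with E2 plus (2S,6S)-HNK (-0.12). It had 86.7 and 81.5 CPM in vehicle, 98.96 and 102 with ketamine, 138 and 141 with (2R,6R)-HNK and 122 and 132 with (2S,6S)-HNK. With E2 plus ketamine it reached 166 and 179 CPM, against 142 and 138 with E2 plus (2R,6R)-HNK and 103 and 96.9 with E2 plus (2S,6S)-HNK. All 14 treated libraries lay above both vehicle libraries, and the 2 libraries of E2 with ketamine above all others. Without the offset that difference from vehicle was the largest rise of any member above 5 CPM (log2 fold change 1.04 ± 0.0384 (SE), edgeR adjusted p = 5.47e-29, 0.19 with the GC offset), and the gene lies at chr19:1383526-1395588, plus strand (GRCh37). NDUFV1, which carries the NADH site, had 191 and 187 CPM in vehicle and 309 and 320.3 with E2 plus ketamine (log2 fold change 0.73 ± 0.028 (SE), edgeR adjusted p = 1.9e-28, 0.12 with the GC offset).

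NDUFS1, the largest iron-sulfur subunit of the peripheral arm, went the other way, from 129.6 and 134 CPM in vehicle to 87.04 and 83.7 with E2 plus ketamine (log2 fold change -0.62 ± 0.0339 (SE), edgeR adjusted p = 2.15e-22, -0.13 with the GC offset). With E2 plus ketamine NDUFS7 and NDUFS1 thus moved in opposite directions in both fits, although both encode parts of the peripheral arm. Over the 7 treatments NDUFS1 was called lower in each without the GC offset. With it NDUFS1 lay between -0.126 and 0.048 and was called lower in 2.

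Of the accessory subunits, NDUFA5 had the deepest fall under 5 of the 7 treatments, and NDUFB3 fell further with (2S,6S)-HNK and with E2 plus (2S,6S)-HNK. NDUFA5 had 27.4 and 28.01 CPM in vehicle, 15.1 and 17.5 with ketamine, 16.99 and 16.3 with (2R,6R)-HNK and 15.7 and 15.3 with (2S,6S)-HNK. The E2 combinations had 14.2 and 13.99 CPM with ketamine, 13.8 and 13.03 with (2R,6R)-HNK and 18.7 and 21.9 with (2S,6S)-HNK. Every treated library lay below both vehicle libraries, and E2 with (2R,6R)-HNK gave the largest fall (log2 fold change -1.05 ± 0.0717 (SE), edgeR adjusted p = 2.28e-18, -0.35 with the GC offset); the gene lies at chr7:123177051-123197958, minus strand (GRCh37). NDUFB3, a membrane arm subunit, fell most with E2 plus (2R,6R)-HNK (log2 fold change -0.92 ± 0.0541 (SE), edgeR adjusted p = 7.51e-21, -0.28 with the GC offset), and went from 43.1 and 45.1 CPM in vehicle to 23.5 and 23.9 with (2S,6S)-HNK. NDUFS4, an accessory subunit of the peripheral arm, went from 37.9 and 35.6 to 20.9 and 21.5 CPM with E2 plus (2R,6R)-HNK (log2 fold change -0.80 ± 0.0554 (SE), edgeR adjusted p = 4.51e-18, -0.30 with the GC offset).

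Among the subunits that rose were NDUFS8, NDUFB7 and NDUFA11. NDUFS8, an iron-sulfur subunit, went from 102 and 95.7 CPM in vehicle to 195 and 194 with E2 plus ketamine (log2 fold change 0.98 ± 0.0336 (SE), edgeR adjusted p = 2.69e-30, 0.27 with the GC offset). NDUFA11, a membrane arm subunit, went from 114 and 114 to 217 and 229 CPM (log2 fold change 0.97 ± 0.0314 (SE), edgeR adjusted p = 1.93e-31, 0.31 with the GC offset), and NDUFB7, also of the membrane arm, from 66.6 and 59.8 to 119.9 and 126 CPM (log2 fold change 0.96 ± 0.0401 (SE), edgeR adjusted p = 7.33e-27, 0.21 with the GC offset). None of the 3 genes had a treated library of that comparison within the vehicle range. Over the 7 treatments with the GC offset, NDUFS8 was called higher in 3 and lower in 2, NDUFA11 in 2 and 2, and NDUFB7 in 2 and 1.

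**Figure D2:**
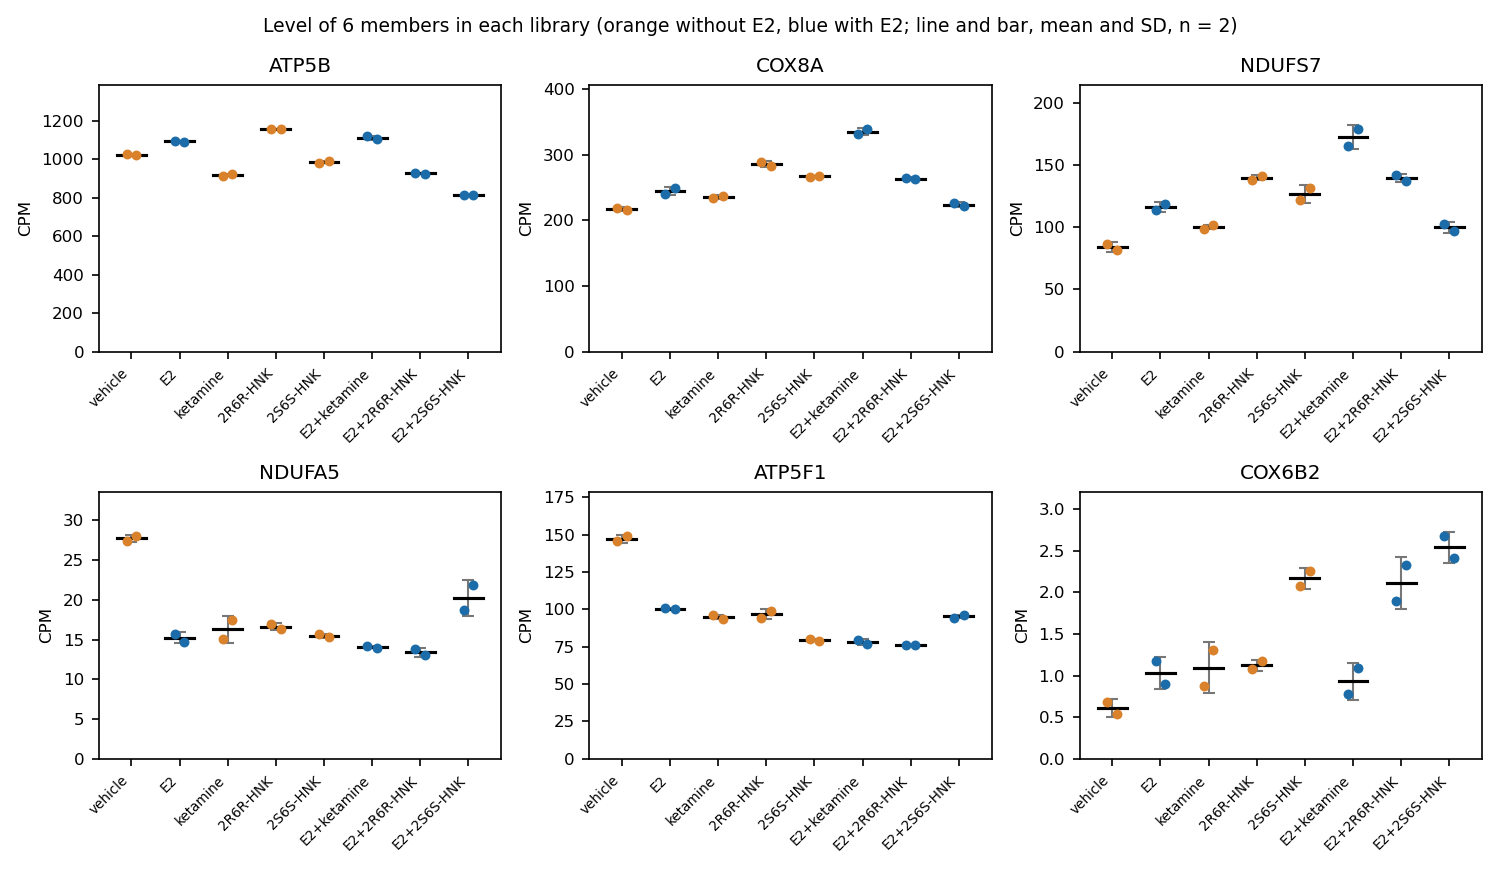
CPM of ATP5B, COX8A, NDUFS7, NDUFA5, ATP5F1 and COX6B2 in each of the 2 libraries of the 8 conditions (points, linear axes from 0; line and bar, mean and SD, n = 2). NDUFS7 is lowest and NDUFA5 and ATP5F1 are highest in vehicle, while ATP5B lies on both sides of its vehicle level.

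Complex II oxidizes succinate and belongs to the citric acid cycle as well. Its catalytic subunit SDHA stayed near its vehicle level without the GC offset, and was called lower in all 7 comparisons with it (-0.29 to -0.099). Without the offset SDHA was called higher in 3, after E2, with (2S,6S)-HNK (0.098) and with E2 plus (2R,6R)-HNK (0.096). It had 164 and 163 CPM in vehicle and 157.7 to 176.7 CPM over the 16 libraries. The SDHA difference with ketamine was 0.009 (95% interval -0.050 to 0.068, edgeR adjusted p = 0.815, -0.15 with the GC offset), and after E2 it was 0.069 (edgeR adjusted p = 0.0412, -0.099 with the GC offset), a call lost without E2 replicate 1 (0.048), vehicle replicate 1 (0.071) or vehicle replicate 2 (0.064). The membrane anchors differed from each other. SDHD was called lower under each treatment, but with the GC offset it lay above 0 in 5 of 7 and was called lower in 1. It went from 89.8 and 92.7 CPM in vehicle to 55.2 and 54.1 with E2 plus ketamine (log2 fold change -0.74 ± 0.0386 (SE), edgeR adjusted p = 4.79e-23, -0.11 with the GC offset) and 82.5 and 83.7 with E2 plus (2S,6S)-HNK (log2 fold change -0.13 ± 0.0369 (SE), edgeR adjusted p = 0.00149, 0.13 with the GC offset). SDHC, its partner, fell with E2 plus (2S,6S)-HNK, from 130.3 and 132 to 109 and 115 CPM (log2 fold change -0.23 ± 0.0313 (SE), edgeR adjusted p = 9.49e-09, -0.13 with the GC offset). With (2R,6R)-HNK it was higher (log2 fold change 0.11 ± 0.0311 (SE), edgeR adjusted p = 0.00215, 0.29 with the GC offset), and with E2 plus (2R,6R)-HNK its log2 fold change of -0.072 (0.14 with the GC offset) was no longer called when any 1 of the 4 libraries was left out (-0.063 to -0.082).

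Complex III takes electrons from ubiquinol to cytochrome c. UQCRC1 and UQCRC2, the 2 core proteins of its matrix side, moved in opposite directions. UQCRC1 rose from 258 and 259 CPM in vehicle to 442 and 462 with E2 plus ketamine (log2 fold change 0.80 ± 0.0264 (SE), edgeR adjusted p = 4.44e-31, 0.28 with the GC offset), while UQCRC2 fell from 122 and 121 to 71.7 and 67.7 CPM (log2 fold change -0.80 ± 0.0348 (SE), edgeR adjusted p = 2.66e-26, -0.44 with the GC offset). With E2 plus (2S,6S)-HNK, UQCRC1 had 275 and 259.9 CPM and a difference of 0.049 that did not pass the test (edgeR adjusted p = 0.107; -0.15 and called lower with the GC offset), although it passed without replicate 2 of that treatment (0.089). UQCRFS1, the Rieske iron-sulfur protein, fell with ketamine from 89.7 and 85.7 to 71.5 and 71.8 CPM (log2 fold change -0.29 ± 0.0361 (SE), edgeR adjusted p = 8.99e-10, -0.045 and not called with the GC offset). With (2R,6R)-HNK its log2 fold change was -0.009 (edgeR adjusted p = 0.843), and with the GC offset it was 0.39 and called higher.

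Complex IV, the oxygen-reducing enzyme, had the highest summed ratio to vehicle of the 5 complexes under 6 of the 7 treatments, up to 1.28 with E2 plus ketamine. The exception was E2 alone, with 1.02 for complex I and 1.01 for complex IV. COX4I1, the largest nuclear subunit, went from 190.1 and 191 CPM in vehicle to 280.1 and 289 with E2 plus ketamine (log2 fold change 0.58 ± 0.0284 (SE), edgeR adjusted p = 4.59e-24, 0.40 with the GC offset). COX8A went from 219 and 215 to 331 and 339 CPM (log2 fold change 0.63 ± 0.0263 (SE), edgeR adjusted p = 6.73e-27, 0.15 with the GC offset) and COX6A1 from 198 and 190 to 284 and 290.1 CPM (log2 fold change 0.56 ± 0.0278 (SE), edgeR adjusted p = 5.29e-24, 0.38 with the GC offset), and none of these 3 overlapped with vehicle there. COX4I1 with ketamine alone was 0.070 (edgeR adjusted p = 0.0299, 0.014 and not called with the GC offset), a call lost without ketamine replicate 2 (0.043), vehicle replicate 1 (0.067) or vehicle replicate 2 (0.073). COX5A, which binds near COX4I1, was -0.22 with E2 plus (2S,6S)-HNK (edgeR adjusted p = 3.62e-07) and 0.19 with E2 plus ketamine (edgeR adjusted p = 2.14e-06).

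COX6C, another small complex IV subunit, stood apart from these. It fell from 73.6 and 71.1 CPM in vehicle to 39.3 and 42 with (2S,6S)-HNK (log2 fold change -0.83 ± 0.0509 (SE), edgeR adjusted p = 4.49e-20, -0.69 with the GC offset), with log2 fold changes of -0.57, -0.46, -0.67, -0.83, -0.68, -0.85 and -0.31 under E2, ketamine, the 2 HNKs ((2R,6R) first), and E2 combined with ketamine and with each HNK in the same order. COX6B1, the common form of COX6B, rose from 78.7 and 79.8 to 111 and 113 CPM with E2 plus ketamine (log2 fold change 0.50 ± 0.0349 (SE), edgeR adjusted p = 4.62e-18, 0.28 with the GC offset). Its testis form COX6B2 had 0.686 and 0.537 CPM in vehicle, 2.08 and 2.26 with (2S,6S)-HNK, 1.89 and 2.33 with E2 plus (2R,6R)-HNK and 2.67 and 2.41 with E2 plus (2S,6S)-HNK. Those 3 treatments raised COX6B2 with no overlap, most with E2 plus (2S,6S)-HNK (log2 fold change 2.05 ± 0.245 (SE), edgeR adjusted p = 3.7e-10, 1.87 with the GC offset). For COX6B2 under E2, ketamine, (2R,6R)-HNK and E2 plus ketamine the calls rested on single libraries: without vehicle replicate 2 the log2 fold changes fell to 0.592, 0.669, 0.703 and 0.441 and none was called. Leaving out replicate 1 of E2 (0.551), replicate 2 of ketamine (0.514) or replicate 2 of E2 plus ketamine (0.341) also ended the call.

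COX7A2, the form of COX7A found in most tissues, and COX7A2L rose with (2R,6R)-HNK, by 0.27 (SE 0.0406, edgeR adjusted p = 5.42e-08, 0.50 with the GC offset) and 0.27 (SE 0.031, edgeR adjusted p = 6.74e-11, 0.83 with the GC offset). Both rose most with E2 plus ketamine, COX7A2 from 61.1 and 63.5 to 83.2 and 80.3 CPM and COX7A2L from 112 and 112 to 150.5 and 145 CPM. These log2 fold changes were 0.39 (edgeR adjusted p = 2.4e-12) and 0.40 (edgeR adjusted p = 1.33e-16).

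Complex V turns proton flow into ATP: protons drive the c ring in the membrane, the ring turns a central stalk inside the catalytic head, and a peripheral stalk holds the head still. The head subunit ATP5B had 1025 and 1020 CPM in vehicle, 1095 and 1090 with E2, 914 and 923 with ketamine, 1157 and 1157 with (2R,6R)-HNK and 980.2 and 989 with (2S,6S)-HNK. With E2 it had 1119 and 1106 CPM for ketamine, 929 and 925 for (2R,6R)-HNK and 814 and 812 for (2S,6S)-HNK. Vehicle lay in the middle, and no treated library fell within its range. The largest difference was with E2 plus (2S,6S)-HNK (log2 fold change -0.33 ± 0.0193 (SE), edgeR adjusted p = 1.9e-20, -0.34 with the GC offset), and that of (2S,6S)-HNK alone, -0.054 (edgeR adjusted p = 0.0113), was lost without vehicle replicate 1 (-0.053). ATP5A1, the alpha subunit that alternates with ATP5B in the head, fell from 312 and 318 to 227 and 225 CPM with E2 plus ketamine (log2 fold change -0.48 ± 0.0256 (SE), edgeR adjusted p = 1.36e-22, -0.25 with the GC offset), where ATP5B rose by 0.12 (SE 0.0192, edgeR adjusted p = 1.61e-07, 0.10 with the GC offset).

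The 4 genes of the peripheral stalk (ATP5F1, ATP5H, ATP5J and ATP5O) were all lower in each of the 7 comparisons, with medians from -0.563 with E2 plus (2R,6R)-HNK to -0.322 with E2 plus (2S,6S)-HNK, but of the 4 only ATP5O was called lower in all 7 with the GC offset. With the offset ATP5F1 was called lower in 5, ATP5H in 1 (-0.14 to -0.028 over the 7), and ATP5J in 1, lying above 0 in 6 and called higher in 2. ATP5F1, subunit b, had 146 and 149 CPM in vehicle, 101 and 100.1 with E2, 96.05 and 93.8 with ketamine, 94.3 and 99.1 with (2R,6R)-HNK and 80.3 and 78.95 with (2S,6S)-HNK. In the E2 combinations it had 79.9 and 76.8, 76.2 and 76.5 and 94.4 and 96.2 CPM with ketamine, the (2R,6R) and the (2S,6S) form. No treated library reached the vehicle level, and the largest fall was with E2 plus (2R,6R)-HNK (log2 fold change -0.95 ± 0.0339 (SE), edgeR adjusted p = 2e-29, -0.39 with the GC offset).

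The 3 c ring genes encode the same mature protein and differ in the part that directs import. With (2R,6R)-HNK all 3 were higher: ATP5G1 went from 79.4 and 82.98 to 95.03 and 103 CPM (log2 fold change 0.28 ± 0.0377 (SE), edgeR adjusted p = 3.12e-09, 0.098 with the GC offset), ATP5G2 from 236 and 241 to 314 and 316 CPM (log2 fold change 0.40 ± 0.0254 (SE), edgeR adjusted p = 1.5e-19, 0.13 with the GC offset) and ATP5G3 from 168 and 168 to 214 and 227 CPM (log2 fold change 0.39 ± 0.0285 (SE), edgeR adjusted p = 3.7e-17, 0.29 with the GC offset). With E2 plus (2S,6S)-HNK they parted, ATP5G3 being lower at -0.21 (SE 0.0288, edgeR adjusted p = 1.17e-08, -0.23 with the GC offset) and ATP5G2 higher at 0.058 (SE 0.0255, edgeR adjusted p = 0.0461, -0.072 with the GC offset). That ATP5G2 call was lost when any 1 of the 4 libraries was left out (0.045 to 0.07).

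**Figure D3:**
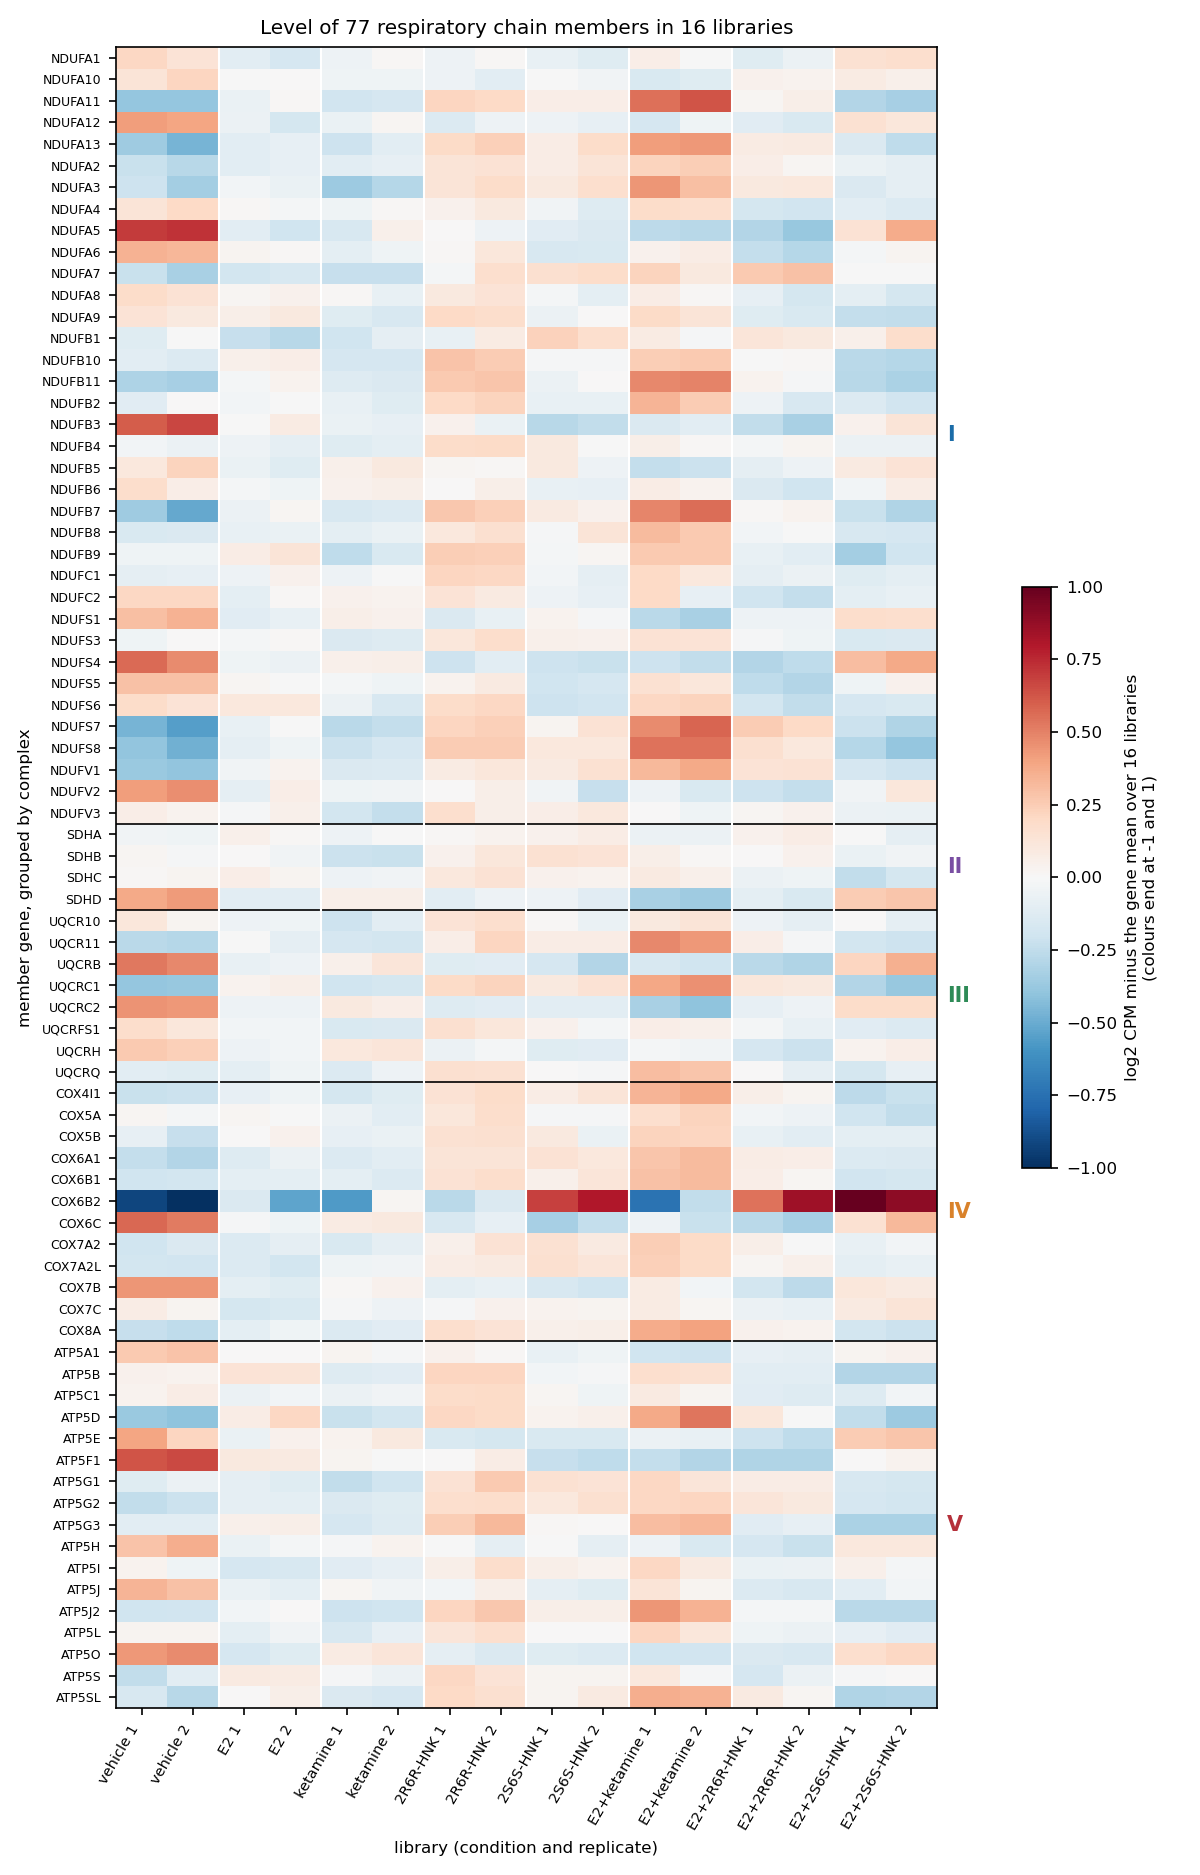
Heat map of the log2 CPM of 77 of the members (vertical axis, by complex) in the 16 libraries (horizontal axis, by condition) minus the gene's mean over all libraries, with colours ending at -1 and 1. ATP5F1, ATP5H, ATP5J and ATP5O, the peripheral stalk of complex V, have their highest values in the 2 vehicle columns.

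Base composition moved with these differences. Across the 78 members the Spearman correlation between the GC content of the transcript and the log2 fold change against vehicle was 0.805 after E2, 0.706 after ketamine and 0.797 and 0.75 after the (2R,6R) and (2S,6S) forms of HNK. It was 0.8, 0.771 and 0.567 when E2 was combined with the same compounds in that order. The members are points of the same libraries, all share vehicle, and the same relation stood across all tested genes, at 0.444 to 0.771. Of the 26 members with the lowest GC content (35.5% to 45.2%), 0 were higher and 23 lower after E2, and of the 26 with the highest (53.0% to 69.3%), 20 were higher and 1 lower. With E2 plus ketamine these counts were 2 and 17 at the low end and 24 and 0 at the high end. NDUFA5, at 35.5% GC, and NDUFS7, at 67.4%, lie at or near the ends of the range by their whole transcripts. The coding part of NDUFA5 has 42.2% GC, so its value, and with it its offset, rests largely on the long annotated tail. Whether HMC3 cells express that tail was not tested.

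With the GC offset the counts of members were 24 higher and 24 lower after E2 (15.5% and 22.7% of 15363 genes), 15 and 37 after ketamine (18.6% and 32.03%), 40 and 13 after (2R,6R)-HNK (21.1% and 25.2%) and 29 and 25 after (2S,6S)-HNK (25.9% and 31.96%). With E2 plus ketamine they were 45 and 18 (25.2% and 28.3%), with E2 plus (2R,6R)-HNK 29 and 30 (26.5% and 34.0%), and with E2 plus (2S,6S)-HNK 18 and 41 (22.8% and 34.7%). The majority of falls with ketamine and E2 plus (2S,6S)-HNK, and of rises with (2R,6R)-HNK and E2 plus ketamine, thus stood in both fits. The values of many single genes did not. Under upper-quartile scaling the falls were no clear majority, with 26 higher and 29 lower for ketamine and 30 and 28 for E2 plus (2S,6S)-HNK.

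With the offset, NDUFS7 had log2 fold changes of -0.025, -0.15, 0.11, 0.017, 0.19, 0.12 and -0.12 for E2, ketamine, the 2 HNKs ((2R,6R) first), and E2 combined with ketamine and with each HNK in the same order, below 0 in 3 of the 7. NDUFA5 had -0.27, -0.28, -0.024, -0.21, -0.13, -0.35 and -0.12, all below 0 and called in 4. ATP5F1 had -0.069, -0.24, -0.064, -0.37, -0.23, -0.39 and -0.35, and SDHD had -0.021, 0.063, 0.028, 0.030, -0.11, 0.044 and 0.13, above 0 in 5. Of the 78 members, 42 had at least 1 called fold change against vehicle whose sign turned with the GC offset, and in 32 of them the turned value was called too. By treatment the number of turned members was 22, 23, 12, 19, 15, 23 and 15 for E2, ketamine, the 2 HNKs ((2R,6R) first), and E2 combined with ketamine and with each HNK in the same order. UQCRC2, COX6C, ATP5A1 and ATP5O were called lower, and NDUFA2 and COX6A1 higher, in each comparison by both fits. The 7 comparisons share vehicle, and NDUFA2 was named after its values were seen.

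For these genes the offset values were between -0.44 and -0.11 for UQCRC2, -0.69 and -0.22 for COX6C, -0.25 and -0.089 for ATP5A1, and -0.37 and -0.13 for ATP5O. NDUFA2, an accessory subunit of complex I, had 0.14 to 0.39, and COX6A1 had 0.090 to 0.38. For COX7A2 (46.5% GC) and COX7A2L (38.6% GC) the offset enlarged the rises, to 0.26 to 0.70 and 0.38 to 1.10.

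**Figure D4:**
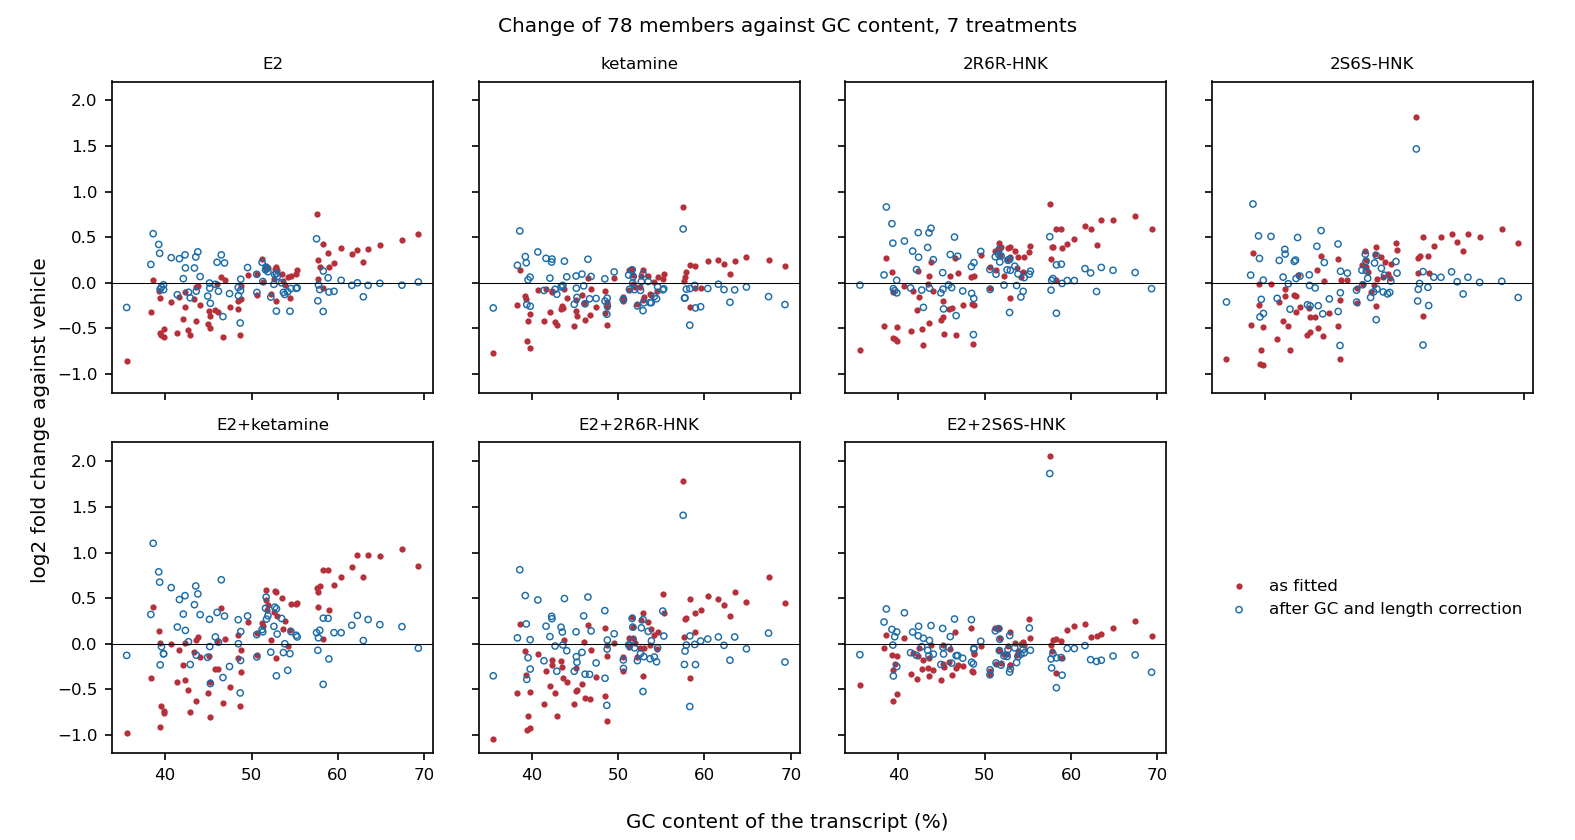
Log2 fold change against vehicle (vertical axes) against GC content in percent (horizontal axes) of the 78 members, 1 panel per treatment, as fitted (filled points) and with the offset for GC content and length (open points). Filled points rise from left to right in all 7 panels, with Spearman correlations from 0.567 to 0.805; all panels share the vehicle libraries.

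The third question was whether the compounds differed from each other at the same dose of 400 nM and the same time. There were 6 pairs, 3 without and 3 with E2. Adjusting the p-values over all 6 comparisons together left the number of called members as it was, at 45, 60, 58, 57, 64 and 68. Each pair shares its libraries with 2 others.

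The mirror-image HNKs differed in 45 of 78 members, of which 42 were higher with (2R,6R)-HNK and 3 lower, where 21% and 22.4% of all genes were. The median log2 difference was 0.099, and with the GC offset the counts were 41 and 5, where 25.1% and 21.4% of all genes were. Of the 26 members lowest in GC content 13 were higher and 1 lower, and of the 26 highest 14 and 1, so both ends of the GC range took part. NDUFS6, a zinc-binding accessory subunit of complex I, differed most of the members above 5 CPM, at 88.2 and 89.8 CPM with (2R,6R)-HNK and 67.4 and 68.1 with (2S,6S)-HNK (log2 difference 0.39, 95% interval 0.32 to 0.47, edgeR adjusted p = 2.02e-12; 0.35 with the offset). ATP5B was higher by 0.23 (interval 0.19 to 0.27, edgeR adjusted p = 1.58e-14). The members lower with (2R,6R)-HNK were NDUFB1, NDUFS1 and COX6B2 (-0.20, -0.12 and -0.95).

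NDUFB1, a small membrane arm subunit, had 25.3 and 28.1 CPM against 31.2 and 29.9 (interval -0.32 to -0.077, edgeR adjusted p = 0.00613), and its call was lost without (2R,6R)-HNK replicate 1 (-0.118) or (2S,6S)-HNK replicate 1 (-0.165). Without the offset, some members gave no difference between the HNKs past the test: SDHA -0.038 (-0.098 to 0.022), SDHB -0.066 (-0.14 to 0.006) and NDUFV1 -0.021 (-0.077 to 0.034). With the offset SDHB had -0.090 and was called lower with (2R,6R)-HNK, and SDHA and NDUFV1 were not called. The intervals bound the difference and do not show that the HNKs act alike on these genes.

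Ketamine against (2R,6R)-HNK, the N-methyl parent against a hydroxylated metabolite, had 10 members higher and 50 lower, where 22.8% and 22.6% of all genes were, with a median of -0.226 (all genes 0.025). With the GC offset these were 6 and 57, against 14.6% and 25.03% of all genes. NDUFA3, an accessory subunit of complex I, differed most of the members above 5 CPM, with 24.2 and 25.5 CPM with ketamine and 34.1 and 35.3 with (2R,6R)-HNK (log2 difference -0.48, interval -0.59 to -0.37, edgeR adjusted p = 1.43e-10; -0.29 with the offset). ATP5E, the epsilon subunit of the complex V stalk, was the gene most above 0, at 12.9 and 13.5 against 11.3 and 11.1 CPM (0.23, interval 0.079 to 0.38, edgeR adjusted p = 0.00947), a call lost without (2R,6R)-HNK replicate 2 (0.218), without ketamine replicate 2 (0.198) and with the offset (0.106).

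Ketamine against (2S,6S)-HNK had 15 members higher and 43 lower, against 22% and 24.2% of all genes, and 10 and 38 with the offset (17.7% and 24.6%). NDUFA3 was again the most negative above 5 CPM (COX6B2 had -0.99), with 33.4 and 34.96 CPM with (2S,6S)-HNK (log2 difference -0.46, edgeR adjusted p = 8.07e-10), and COX6C the most positive, at 52.4 and 53.04 CPM with ketamine against 39.3 and 42 (0.37, interval 0.27 to 0.48, edgeR adjusted p = 2.1e-08; 0.34 with the offset). SDHB was lower with ketamine than with either HNK, by log2 differences of -0.30 and -0.36 (edgeR adjusted p = 8.17e-10 and 4.08e-12).

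With E2 present the order of the compounds was another. E2 plus ketamine exceeded E2 plus (2R,6R)-HNK in 56 members and was below it in 8, where 25.3% and 26.7% of all genes were, with a median of 0.191. It exceeded E2 plus (2S,6S)-HNK in 48 and was below it in 20, against 31.7% and 35% of all genes, with a median of 0.182 (all genes -0.054). With the offset these were 55 and 8 (28.5% and 22.7% of all genes), and 54 and 11 (31.4% and 25.3%). Above 5 CPM, NDUFA11 differed most in both, at 217 and 229 CPM with E2 plus ketamine, 151 and 155 with E2 plus (2R,6R)-HNK and 122 and 118 with E2 plus (2S,6S)-HNK. Its log2 differences were 0.55 (0.33 with the offset) and 0.90 (interval 0.84 to 0.96, edgeR adjusted p = 5.93e-30; 0.48 with the offset). COX6B2, at about 1 CPM, had -1.18 and -1.45. On the other side above 5 CPM were UQCRC2 at -0.30 (edgeR adjusted p = 3.1e-10) and SDHD at -0.60 (edgeR adjusted p = 1.72e-19, -0.24 with the offset).

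The HNKs with E2 split the members more evenly: 33 were higher with E2 plus (2R,6R)-HNK and 24 lower, where 29.1% and 25% of all genes were. With the offset the counts were 35 and 14 (17.8% and 12.1%). NDUFS7 was the most positive at 0.48 (edgeR adjusted p = 1.51e-15; 0.24 with the offset) and NDUFS4 the most negative at -0.62 (edgeR adjusted p = 1.17e-13; -0.36). For NDUFS4 the libraries had 20.9 and 21.5 CPM with E2 plus (2R,6R)-HNK and 31.8 and 33.3 with E2 plus (2S,6S)-HNK, with no overlap.

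**Figure D5:**
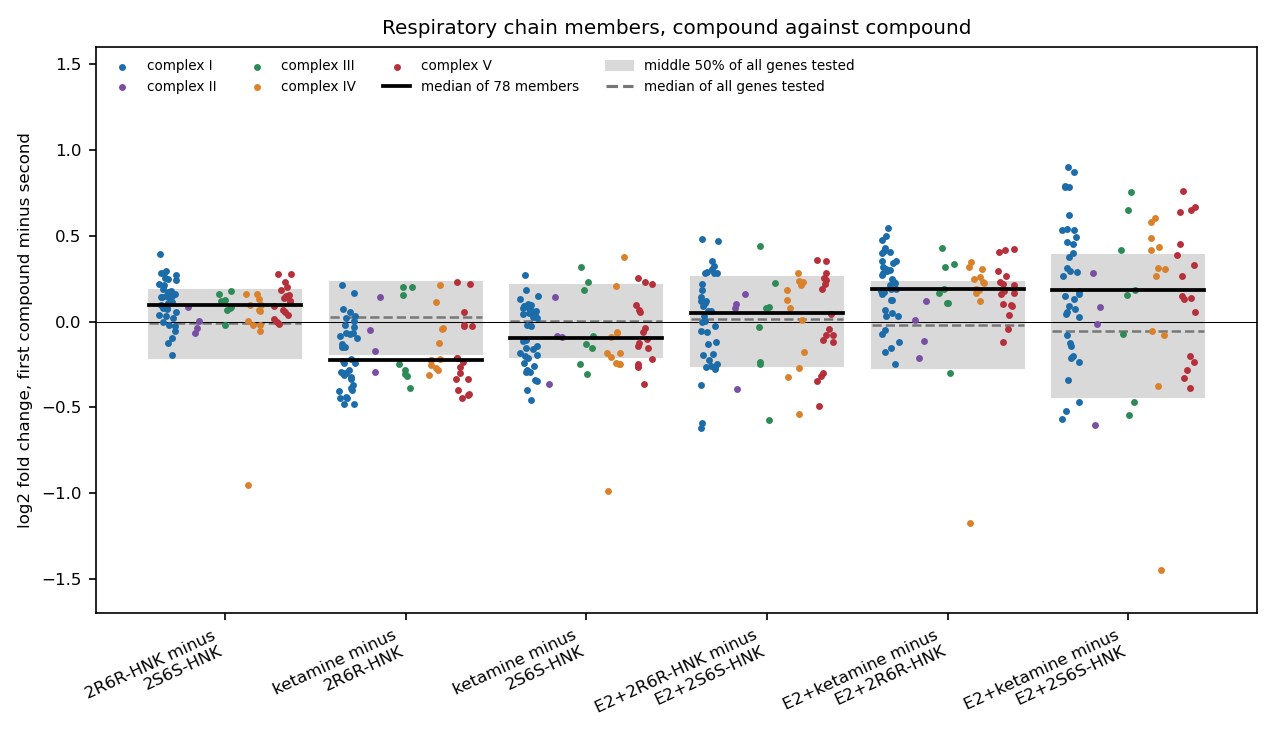
Log2 difference between compounds at 400 nM for each of the 78 members (vertical axis), for the 3 pairs without E2 and the 3 pairs with E2 (horizontal axis), coloured by complex; black lines are medians of the members, and grey boxes with dashed lines are the quartiles and median of all tested genes. The member medians are -0.226 for ketamine minus (2R,6R)-HNK and 0.191 for the same pair in the presence of E2.

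The fourth question was whether a compound's effect differed with E2 present, tested as the effect of adding the compound to E2 minus its effect against vehicle. For ketamine this difference was positive in 64 of 78 members and negative in 1, where 24.5% and 13.1% of all genes were called, with a median of 0.283 on the log2 scale (all genes 0.043). It was positive in 33 of 37 for complex I, 1 of 4 for complex II, 7 of 8 for complex III, 10 of 12 for complex IV and 13 of 17 for complex V, and the gene on the other side was COX6B2 (-0.98, edgeR adjusted p = 0.0308). The 13 members not called were NDUFA10, NDUFB5, NDUFC1, NDUFS1, SDHA, SDHC, SDHD, UQCRC2, COX5B, ATP5A1, ATP5D, ATP5E and ATP5S, so that 3 of the 4 complex II genes were among them.

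In the summed level this appeared as 8357 ± 48.2 CPM in vehicle against 7907 ± 69.7 with ketamine, and 8377 ± 74.1 with E2 against 9640 ± 18.3 with E2 plus ketamine (SD, n = 2 each). NDUFA5 had the largest value of the members above 5 CPM, 0.65 (interval 0.44 to 0.86, edgeR adjusted p = 1.14e-06, 0.42 with the offset): ketamine took it from 27.4 and 28.01 to 15.1 and 17.5 CPM without E2 and from 15.7 and 14.8 to 14.2 and 13.99 CPM with it. The E2 plus ketamine libraries lay below those of E2, and the ketamine libraries further below those of vehicle. ATP5B had 0.18 (edgeR adjusted p = 3.45e-07), with a fall after ketamine alone and a rise from E2 to E2 plus ketamine.

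The ketamine difference did not follow GC content, with a Spearman correlation of -0.03 across the members and 21, 20 and 23 positive genes in the low, middle and high 26 by GC content. With the offset the correlation was 0.441, the counts 50 positive and 3 negative (26.2% and 11.4% of all genes) and the median 0.203. DESeq2 gave 62 and 1, and upper-quartile scaling 55 and 2.

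For the HNKs the members split. With (2R,6R)-HNK the difference was positive in 23 and negative in 38, where 31.5% and 25.2% of all genes were, and the offset changed this to 9 and 36 (22.4% and 22.2%). ATP5D was the most negative at -0.68 (edgeR adjusted p = 5.53e-15; -0.15 with the offset) and ATP5O the most positive at 0.56 (edgeR adjusted p = 2.94e-15; 0.39). With (2S,6S)-HNK it was positive in 26 and negative in 37, where 32.9% and 32.2% of all genes were, and the offset gave 17 and 38 (19.9% and 21.6%). UQCRC1 was the most negative at -0.88 (interval -0.96 to -0.81, edgeR adjusted p = 6.84e-26; -0.41 with the offset), and NDUFA5 the most positive at 1.25 (interval 1.04 to 1.45, edgeR adjusted p = 2.45e-15; 0.36). UQCRC1 had 345 and 351 CPM with E2 and 275 and 259.9 with E2 plus (2S,6S)-HNK, against 258 and 259 in vehicle and 362 and 372 with (2S,6S)-HNK alone, so the compound's libraries lay below E2 in 1 case and above vehicle in the other.

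Most assembly factors build the complexes without staying in them. The list of such factors and cytochrome c, which also held the complex I subunit NDUFAB1, had 48 of 51 genes tested. Against vehicle, beside the shares of all genes given above for each treatment, they had 9 higher and 24 lower after E2, 6 and 29 after ketamine, 13 and 20 after (2R,6R)-HNK and 10 and 22 after (2S,6S)-HNK. The E2 combinations with ketamine, (2R,6R)-HNK and its mirror image had 14 and 24, 9 and 25, and 6 and 23. With the GC offset the counts were 7 and 9 after E2, 3 and 21 after ketamine, 16 and 7 and 12 and 15 after the HNKs ((2R,6R) first), and 15 and 12, 11 and 19, and 8 and 19 for the E2 combinations in the same order. With it 6.25% were higher and 43.75% lower after ketamine, against 18.6% and 32.03% of all genes. The shares with (2S,6S)-HNK, 25% and 31.25%, were near the 25.9% and 31.96% of all genes. They were 22.92% and 39.58% with E2 plus (2R,6R)-HNK (all genes 26.5% and 34.0%), and 16.67% and 39.58% with E2 plus (2S,6S)-HNK (22.8% and 34.7%). The larger number of falls was down to 9 against 7 after E2 and turned for (2R,6R)-HNK and E2 plus ketamine. The difference of the ketamine effect with E2 was positive in 26 and negative in 0 of the 48 genes, where 24.5% and 13.1% of all genes were (21 and 0 with the offset). The 16 citric acid cycle and pyruvate dehydrogenase genes, which supply the NADH and succinate, had 4 or 5 higher and 8 to 11 lower in each of the 7 comparisons with vehicle, where 24% to 34.3% of all genes were higher and 32.5% to 37.4% lower. With the GC offset they had 0 to 7 higher and 7 to 10 lower, from 0 and 9 after ketamine to 6 and 7 after (2S,6S)-HNK and 7 and 8 after E2 plus (2R,6R)-HNK. In the difference of the ketamine effect with E2, 10 were positive and 1 negative, with and without the offset.

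Reads of some members may not have been wholly assigned. By the GENCODE annotation of GRCh37, with all transcripts of a gene joined, exons of NDUFC2 and its read-through form NDUFC2-KCTD14 share 428 bases on the same strand. Those of NDUFS3 and PTPMT1 share 721, of NDUFC1 and MGARP 360 and of NDUFS1 and the pseudogene GCSHP3 391. On opposite strands, NDUFB9 shares 2001 bases with MTSS1, ATP5S 1908 with CDKL1, ATP5E 1180 with TUBB1 and ATP5J 692 with GABPA, and other members, among them NDUFB2, NDUFC1 and ATP5I, share bases with genes of the other strand too. The authors counted on UCSC hg19 gene models, whose overlaps were not examined and may differ from these. No source used here says whether counting used the strand, so the values of all members with such an overlap carry this limit.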

How the data were processed

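RNA-seq gene counts of HMC3 cells were analysed in 16 libraries, 2 for each of 8 conditions, grouped by the treatment in the sample labels. The authors deposited raw read counts per gene symbol, made per the submitters' notes with TopHat2 2.0.14, Bowtie2 2.2.6 and featureCounts 1.4.6 on hg19 from paired reads of amplified cDNA, with uniquely mapped pairs counted; whether strand was used is not given in the sources used here. Counts of 1 to 9 were even in 65.8% of cases, against 49.9% of counts of at least 500, and the cause was not tested.

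Counts were fitted in edgeR 4.0.16 (R 4.3.3, limma 3.58.1) with trimmed-mean scaling, its default filter on low counts (16004 of 25370 genes kept) and the quasi-likelihood test over 8 groups with 8 residual degrees of freedom, with Benjamini-Hochberg adjustment done separately in each of 16 comparisons: 7 against vehicle, 6 between compounds and 3 of a compound's effect with and without E2. A call is an adjusted p below 0.05. Library totals were 55300614 to 81646165 counts, and the variance between replicates was 2.75 to 4.66 times the sampling variance. The members and all gene lists were chosen with earlier results of these data known.

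Genes named are the core subunits, the isoform families, the 2 largest rises and 2 largest falls per comparison with vehicle and the largest positive and negative member per other comparison (mean of at least 5 CPM), the members and matches next to the limit of 50 counts, and members with a called log2 fold change of at least 1. 1 core subunit is counted among the members and is not reported by name here. Annotation was GENCODE v44 lifted to GRCh37, from which GC content and length were taken for 95.99% of tested genes (1 transcript per gene, with a coding part of at least 90% of the longest principal one). The alternatives were DESeq2 1.42.0, a fit of the compared groups only, no filter, upper-quartile scaling, a minimum of 10 counts in every library, the replicate number as a block, a loess offset for GC content and length (span 0.5) with and without that block, halved counts, a membership limit of 500, and each library left out. On simulated counts for ketamine against vehicle with 16004 genes and 200 changed, the test recovered 40%, 68.3% and 71.7% of the genes changed by 0.25, 0.5 and 1 on the log2 scale, with 2 false calls. The simulated counts held no trend with GC content or length, and in the data 59.3% of genes were called for ketamine. The false calls of the simulation therefore do not measure errors under such a trend.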

Additional observations from a re-analysis of the deposited data

Results flagged for a closer look

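The effect of a compound differed between cells with and without E2, by the edgeR test of the difference itself, in 65 members with ketamine, in 61 with (2R,6R)-HNK and in 63 with its mirror image. The background was 37.5%, 56.6% and 65.1% of all genes tested. Of the members above 5 CPM, the genes with the largest values were NDUFA5 with ketamine (log2 difference of effects 0.65), ATP5D (-0.68) and ATP5O (0.56) with (2R,6R)-HNK, and UQCRC1 (-0.88) and NDUFA5 (1.25) with (2S,6S)-HNK. With the offset for GC content and length these were 0.42, -0.15, 0.39, -0.41 and 0.36. Ranked by the offset values above 5 CPM, the largest were NDUFA3 with ketamine (0.477), NDUFA9 (-0.704) and ATP5O with (2R,6R)-HNK, and COX7A2L (-1.02) and COX6C (0.905) with (2S,6S)-HNK. No explanation was tested.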

How the results depend on the processing

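Of the 23 counts of members, 23 stayed within 1.5 times their value with DESeq2, halved counts, either other filter on low counts, a membership limit of 500 and the replicate block, and all 104 with 1 library left out. Upper-quartile scaling gave 26 members higher with ketamine and 30 with E2 plus (2S,6S)-HNK, and the compared groups alone gave 23 for the latter. The offset for GC content and length gave 13 lower with (2R,6R)-HNK, with or without the block. The split of higher against lower also moved by over 10 points to 34 and 28 (E2) with upper-quartile scaling, and with the offset to 45 and 18 (E2 plus ketamine), 35 and 14 and 54 and 11 (E2 plus (2S,6S)-HNK subtracted from E2 plus (2R,6R)-HNK and from E2 plus ketamine) and 9 and 36 and 17 and 38 (effects of the HNKs with E2, (2R,6R) first). The upper-quartile shift of the median of all genes against vehicle was 0.062 to 0.105. The medians of the members moved in all 7 cases under upper-quartile scaling, so their size depended on the scaling. They moved in 2 with DESeq2 and in 1 each with the offset and with the compared groups alone.

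With the offset the sign of called values turned in NDUFS7 (E2 -0.025, ketamine -0.151, with the block -0.152, E2 plus (2S,6S)-HNK -0.123, with the block -0.122), NDUFB7 (ketamine -0.046), NDUFS1 ((2S,6S)-HNK 0.048, with E2 0.036), NDUFV1 (ketamine -0.062, E2 plus (2S,6S)-HNK -0.053), SDHA (E2 -0.099, (2S,6S)-HNK -0.121, E2 plus (2R,6R)-HNK -0.146) and SDHC (E2 plus (2R,6R)-HNK 0.14, and 0.01 with upper-quartile scaling). It also turned in SDHD (ketamine 0.063, (2R,6R)-HNK 0.028, (2S,6S)-HNK 0.03, with E2 0.044 and 0.129), UQCRC1 (ketamine -0.063), UQCRFS1 (E2 0.163, (2S,6S)-HNK 0.236, with the block 0.237, E2 plus ketamine 0.428, E2 plus (2R,6R)-HNK 0.181), COX8A (E2 -0.074, ketamine -0.069, (2S,6S)-HNK -0.007, E2 plus (2R,6R)-HNK -0.015), ATP5G1 (E2 plus ketamine -0.001) and ATP5G2 (E2 -0.055, ketamine -0.065, E2 plus (2S,6S)-HNK -0.072). With upper-quartile scaling it turned in COX5A (ketamine 0.003) and ATP5B ((2S,6S)-HNK 0.021). The cause was not tested.

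Deviations of libraries with the same replicate number correlated at -0.0258 to 0.0451, so the numbers do not pair the libraries. With the replicate block the ketamine counts were 17 higher and 40 lower, and 204 of 206 single values kept their side of the threshold, the exceptions being COX6B2 under E2 plus ketamine and ATP5G2 under E2 plus (2S,6S)-HNK. With 1 library left out, a call was lost in 39 cases and gained in 3, where a single value counts once for each library left out. With the offset for GC content and length, 25 of the 206 single values lost their call and 23 gained one, beside the 30 that turned in sign. COX6B2, at about 1 CPM, is the member for which depth limits precision.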

Other observations

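Proteins of the mitochondrial ribosome, which translates the subunits encoded in mitochondrial DNA, were counted beside the members, with 77 genes tested. The effect of ketamine was more positive with E2 in 64 of them and more negative in 0, where 24.5% and 13.1% of all genes were (56 and 0 with the offset for GC content and length). Between the HNKs 48 were higher with (2R,6R)-HNK and 3 lower (21% and 22.4% of all genes), and ketamine against (2R,6R)-HNK had 3 higher and 47 lower (22.8% and 22.6%). In the presence of E2, ketamine exceeded (2R,6R)-HNK in 50 and was below it in 4 (25.3% and 26.7%). Against vehicle the counts of higher and lower genes were 25 and 38 after E2, 16 and 46 after ketamine, 34 and 34 after (2R,6R)-HNK and 28 and 41 after (2S,6S)-HNK. With E2 they were 32 and 35 for ketamine, 26 and 41 for (2R,6R)-HNK and 6 and 46 for (2S,6S)-HNK. With the offset these counts were 20 and 23, 6 and 52, 31 and 22, and 20 and 42 for the first 4 treatments and 33 and 20, 18 and 44, and 10 and 51 for the E2 combinations, in the same order, where 15.5% to 26.5% of all genes were higher and 22.7% to 34.7% lower. Without the offset the shares of all genes called higher in these comparisons were 24% to 34.3%, and lower 32.5% to 37.4%.

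Of 12 regulators of respiratory gene expression, 2 to 4 were called higher and 5 or 6 lower in each comparison with vehicle. Of all genes 24% to 34.3% were higher and 32.5% to 37.4% lower. With the offset 0 to 2 regulators were higher and 5 to 8 lower, where 15.5% to 26.5% and 22.7% to 34.7% of all genes were. The regulators below were named after their values were seen. TFAM, which packages mitochondrial DNA and activates its transcription, had log2 fold changes of -0.70, -0.69, -0.79, -1.05, -0.96, -1.14 and -0.73 under E2, ketamine, the 2 HNKs ((2R,6R) first), and E2 combined with ketamine and with each HNK in the same order, and TFB2M, a mitochondrial transcription factor, had -0.73, -0.56, -0.64, -0.91, -0.99, -0.99 and -0.48. With the offset TFAM had -0.12, -0.21, -0.093, -0.43, -0.13, -0.46 and -0.40 and TFB2M -0.30, -0.22, -0.18, -0.45, -0.41, -0.50 and -0.25. Of these only the -0.093 of TFAM was not called. GABPB1, a partner of the ETS factor GABPA, had -0.61, -0.69, -0.67, -0.81, -0.75, -0.71 and -0.44 and, with the offset, -0.34, -0.49, -0.39, -0.52, -0.39, -0.41 and -0.30. GABPA itself was called lower in each comparison (-0.98 to -0.49), and with the offset (-0.285 to -0.06) in all but (2R,6R)-HNK. NRF1 had -0.047, 0.019, 0.15, 0.18, 0.18, 0.15 and -0.037, of which those for (2R,6R)-HNK, (2S,6S)-HNK and the E2 combinations with ketamine and (2R,6R)-HNK passed the test. With the offset the same ones were called, at 0.209, 0.219, 0.273 and 0.161. PPARGC1A, at 29 to 83 counts, was called in none without the offset. With it PPARGC1A was higher with ketamine (0.85) and (2R,6R)-HNK (0.876). ESRRA, a nuclear receptor, and POLRMT, the mitochondrial RNA polymerase, were higher than vehicle in each comparison without the offset (0.12 to 0.67 and 0.19 to 0.74) and in none with it. With the offset ESRRA was called lower with (2R,6R)-HNK (-0.138) and with E2 plus either HNK (-0.22 and -0.192, (2R,6R) first). POLRMT was called lower with ketamine (-0.213), (2S,6S)-HNK (-0.093), E2 plus (2R,6R)-HNK (-0.069) and E2 plus (2S,6S)-HNK (-0.173).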
